A study of Mus musculus with 15 samples.

Results

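Gene expression in GL261 gliomas of mice given 200 µg of an anti-VEGF-A antibody per dose was compared with that in untreated GL261 gliomas. GL261 is a mouse glioma line that grows as a brain tumor in C57BL/6 mice, the strain of all samples here. The comparison holds 6 of the 15 RNA-seq samples of the series, 3 tumors at 200 µg and 3 untreated tumors, placed in their groups by the sample titles. Treated mice received the monoclonal antibody B20.4.1.1, which binds VEGF-A, from day 10 after tumor implantation and then every 3 days until the endpoint. Untreated mice stand at a dose of 0 µg in the labels, which name no control antibody. All mice were perfused with saline before the tumors were frozen, and a bulk tumor sample holds tumor cells together with the vessels, immune cells and brain cells around them. Tumors given 50 µg and 100 µg (3 each) shared the estimate of spread in the test, and their values are set beside those of the 2 groups where useful. In bulk samples fewer cells of a type and less RNA per cell cannot be told apart.

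VEGF-A is the main growth signal of blood vessels and acts on endothelial cells through the receptor Kdr, with Flt1 as a second receptor and the neuropilins Nrp1 and Nrp2 as co-receptors. Gliomas are rich in leaky vessels that depend on it, and an antibody to VEGF-A binds the protein and not its transcript. Cells that run short of amino acids or accumulate misfolded proteins raise the transcription factor ATF4, which turns on genes of amino acid uptake, amino acid synthesis and tRNA charging. Growth factor receptors signal through the ERK kinases, and these turn on their own inhibitors, among them the Sprouty proteins and the dual specificity phosphatases.

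The deposited files list transcripts assembled separately in each library, with an FPKM (fragment count scaled to transcript length and library size) and no gene names. A gene's value here adds up the FPKM of all transcripts on its exons, each weighted by how much of the exonic length it covers, so it is a level per length. A gene whose reads do not join is listed as several pieces. Such genes made up 4.10, 4.52 and 4.58% of 13156 multi-exon genes at 200 µg, against 15.2, 14.0 and 12.7% in untreated tumors. Estimated depth was 22.6, 27.2 and 21.6 M fragments at 200 µg and 17.5, 18.2 and 17.5 M in untreated tumors. The 200 µg libraries thus differed from the untreated ones in assembly and depth as well as in dose, and replicate 3 at 100 µg lay with them, at 3.52% of genes in pieces. Replicate 3 at 50 µg, at 26.1%, stood apart from all others. On the first principal component of the 12 tumor libraries, which held 23.8% of the variance, the 200 µg libraries lay at 41.5 to 50.9, 100 µg replicate 3 at 42.6 and the untreated libraries at -40.5 to -29.1. The agent tag of the labels disagreed with the title for replicate 3 of all 4 tumor groups, giving 50 µg for the untreated one and no dose for the one at 200 µg.

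**Figure D1:**
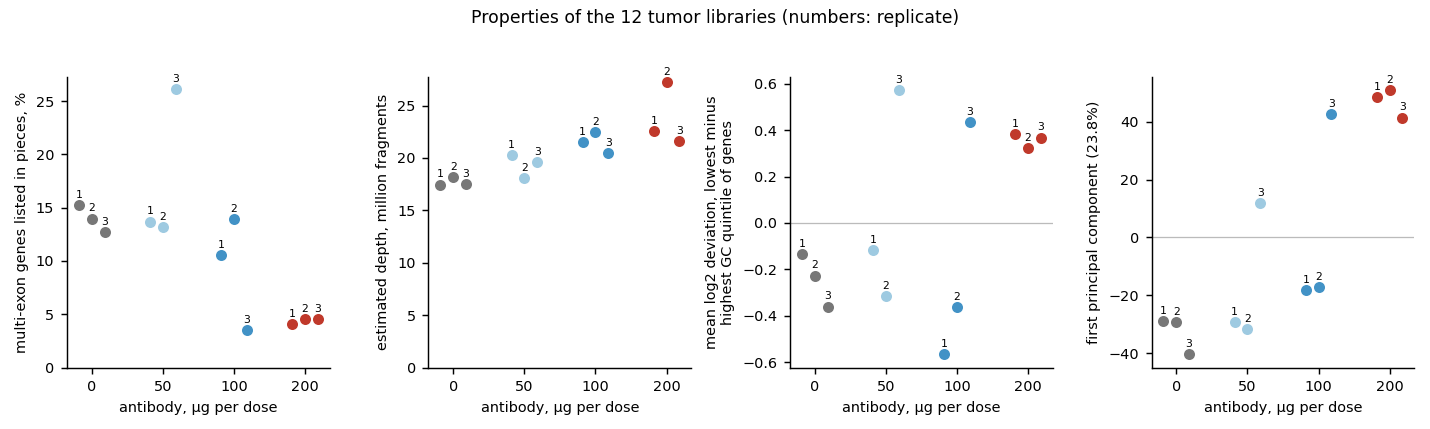
Properties of the 12 tumor libraries by antibody dose (µg per dose, 0 for untreated), with the replicate number beside each point. From left to right: multi-exon genes listed in pieces (%), estimated sequencing depth in fragments, the mean log2 deviation of genes in the lowest quintile of GC content minus that in the highest quintile, and the first principal component. The 3 libraries at 200 µg and replicate 3 at 100 µg lie between 3.52 and 4.58% of genes in pieces, below the other 8.

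Of 14653 genes that averaged 1 FPKM or more across the 12 tumor libraries, 298 were higher and 117 lower at 200 µg than in untreated tumors, at an adjusted p under 0.05 by limma on log2(FPKM + 1) with Benjamini-Hochberg adjustment. That is a background of 2.83% of genes called, 2.03% higher and 0.798% lower. Among the genes called, 266 of the higher and 93 of the lower code for proteins. At an unadjusted p under 0.05, 3376 genes passed, 1930 higher and 1446 lower. This is the background for the counts of list members at that threshold below. Over all genes the median log2 fold change was 0.036, and called genes moved by a median of 1.20 when higher and 1.35 when lower. The 3 libraries at 200 µg lay wholly above the 3 untreated ones for 21.8% of genes and wholly below for 17% of genes. At 50 µg limma called 0 of the same genes, with 588 at an unadjusted p under 0.05, and at 100 µg it called 13, or 0.0887%. These comparisons share the untreated libraries. Whether the changes at 200 µg differ from those at 100 µg was not tested here.

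**Figure D2:**
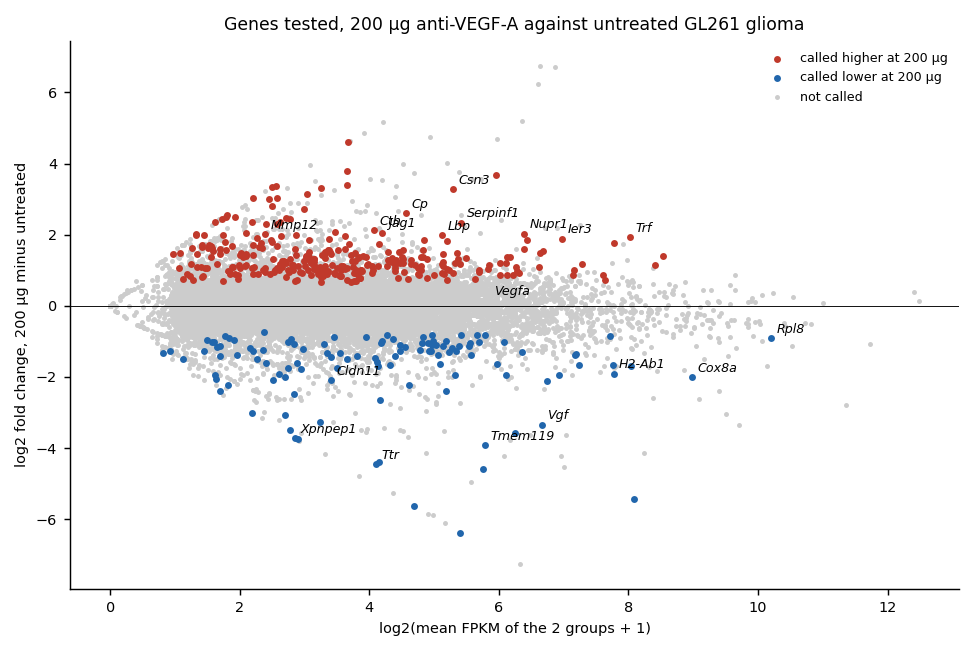
Log2 fold change (200 µg minus untreated) of each of the 14653 genes tested against its mean level in the 2 groups, log2(FPKM + 1). Red points are the 298 genes called higher, blue points the 117 called lower and gray points the rest, with named genes labelled.

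The number of calls rested strongly on single libraries. Without replicate 1, 2 or 3 at 200 µg, limma called 8, 34 and 235 genes. Without untreated replicate 1, 2 or 3 it called 68, 65 and 35. Without replicate 3 at 50 µg and at 100 µg together it called 2407, among them all 415. A model term marking the 4 libraries with few pieces left 35 genes called, of which 8 were called in the comparison as reported, and there the 200 µg effect rests on the difference between replicate 3 at 100 µg and its partners. The agent tag of replicate 3 at 100 µg also disagrees with its title, and assembly state and dose cannot be told apart for any gene. With the plain FPKM sum of intron-matched transcripts 29 genes were called, 22 of them shared. Without the libraries whose agent tag disagrees with the title 928 were called, of which 300 were shared. Among 75 called genes named here or held by the lists used here, Cp, Timp2 and Cfap43 stayed called without any 1 of the 6 libraries. Of these, Cfap43 is uncertain because its transcripts join a neighbor.

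Called genes differed from the rest in base composition and length. Of the quintile of genes with the lowest GC content, 3.24% were called higher and 0.102% lower, with a median log2 fold change of 0.305. In the quintile with the highest GC content 0.648% were called higher and 2.01% lower, with a median of -0.321. Exonic length gave a smaller slope, with medians of -0.107 in the shortest quintile and 0.179 in the longest, and with 1.67% and 0.171% of genes called lower. Genes called higher had a median exonic length of 3519 bases and a median GC content of 46.3%, genes called lower 1510 bases and 56.0%, and all genes tested 2797 bases and 50.0%. The same contrast was present library by library. Genes of the lowest GC quintile exceeded those of the highest by 0.384, 0.322 and 0.368 log2 units at 200 µg, relative to each gene's mean over the tumor libraries, against -0.133, -0.227 and -0.360 in untreated tumors. Replicate 3 at 100 µg, at 0.435, and replicate 3 at 50 µg, at 0.572, lay with the 200 µg libraries. With a smooth GC trend removed from each library 317 genes were called higher and 132 lower, of which 216 and 77 were among those called without this step. Genes listed in 1 piece in all 6 libraries had 1.98% called higher and 1% lower, and genes in several pieces somewhere had 2.18% and 0.253%. The part of GC content, length and assembly in these calls was not tested. Calls lost with the GC trend removed are named as such beside the genes below. Members of a list that were not called and are given by their fold change are familiar genes of that list, chosen after their values were seen.

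**Figure D3:**
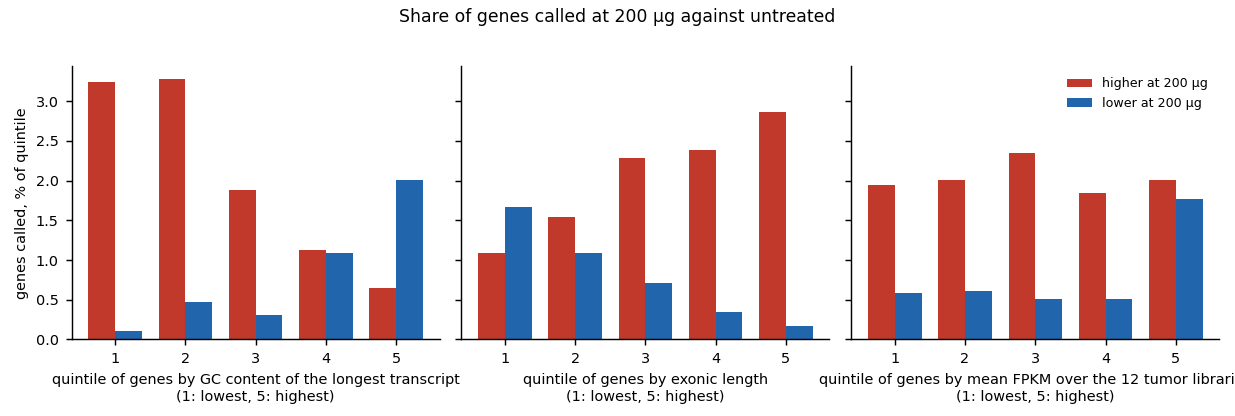
Share of genes called higher (red) or lower (blue) at 200 µg in each quintile of the 14653 genes tested, by GC content of the longest transcript, exonic length and mean FPKM over the 12 tumor libraries. Genes called higher are commonest in the 2 quintiles of lowest GC (3.24 and 3.28%), and genes called lower in the quintile of highest GC (2.01%).

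Of the VEGF axis, 1 gene passed the test. Of 8 tested ligands and receptors the co-receptor Nrp2 rose. It stood at 13.3, 10.4 and 12.4 FPKM at 200 µg against 5.86, 4.32 and 5.87 in untreated tumors, and the groups did not overlap. Its log2 fold change was 1.04 (SE 0.20, adjusted p = 0.0289), and without 1 library of the 6 the adjusted p ran over 0.0598 to 0.114. Vegfa, the antibody's target, stood at 62.8, 53.1 and 60.4 FPKM at 200 µg and 68.6, 55.6 and 37.7 in untreated tumors, with overlapping groups and a log2 change of 0.16 (SE 0.37, adjusted p = 0.827). The receptor Kdr had 4.11, 2.72 and 1.02 FPKM against 5.12, 1.76 and 2.59, and the groups overlapped. Flt1 was at 5.58 ± 0.856 FPKM at 200 µg and 5.94 ± 0.688 in untreated tumors (SD, n = 3 each). None of 25 endothelial genes was called by limma, with 1 higher and 3 lower at an unadjusted p under 0.05. Of all 14653 genes tested, 1930 were higher and 1446 lower at that threshold. Their median log2 fold change was -0.25, and 18 of 25 estimates were negative. The general endothelial marker Pecam1 was at 0.02, the junction cadherin Cdh5 at -0.58 and the orphan receptor Tie1 at -0.80 (adjusted p = 0.0905). None of 14 tip cell genes, which mark the leading cells of vessel sprouts, was called either, with 2 higher and 3 lower at an unadjusted p under 0.05, and their median was -0.58, beside 0.036 for all genes. Esm1, a proteoglycan of tip cells, had 5.77, 2.43 and 0 FPKM at 200 µg against 13.1, 6.12 and 5.69 in untreated tumors, with the lowest values at 200 µg and overlapping groups. Of 14 pericyte and smooth muscle genes limma called none, with 1 higher and 1 lower at an unadjusted p under 0.05 and a median of -0.02. The summed level of the endothelial genes ran from 86.2 to 172 FPKM at 200 µg and from 141 to 216 in untreated tumors, ranges that overlap. Without replicate 3 at 200 µg, the median over the 52 vessel genes moved to -0.01, against -0.26 with it.

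Around this axis, 2 signals that act on vessels and tumor cells rose and 1 fell, out of 17 angiogenic signals tested. Jag1, a Notch ligand that opposes Dll4 in sprouting vessels, stood at 40.4, 27.7 and 18.5 FPKM at 200 µg against 5.88, 6.18 and 5.53 in untreated tumors (chromosome 2, 137081456 to 137116644 in mm10). Every treated value lay far above the untreated ones, with a log2 change of 2.06 (SE 0.30, adjusted p = 0.0129). Fgf1, a growth factor that acts on FGF receptors, had 3.48, 2.56 and 2.07 FPKM against 0.257, 0.443 and 0.3401, a low level in both groups that did not overlap (log2 fold change 1.44, SE 0.23, adjusted p = 0.0174). Notch4, a Notch receptor of endothelium, fell to 1.39, 1.104 and 0.615 FPKM at 200 µg, against 3.23, 3.06 and 2.899 in untreated tumors. Its call ended once the GC trend was removed, at -0.59 (adjusted p = 0.0703). The Notch targets Hes1 (1.48, adjusted p = 0.0672) and Hey1 (1.23, adjusted p = 0.0989) were not called. Among 15 transporters of the blood-brain barrier 3 rose, beside 2.03% of all genes, with a median of 0.68 over the list. The count was 1 with the length trend removed, 2 under median-of-ratios scaling and 2 under quantile normalization. They were the efflux pumps Abcg2 (0.96) and Abcc4 (0.70) and the amino acid carrier Slc38a5 (1.66). Abcg2, which exports drugs from brain endothelium, stood at 8.53, 6.25 and 9.23 FPKM at 200 µg and 4.04, 3.62 and 3.16 in untreated tumors, without overlap. With the GC trend removed its fold change was 0.63 (adjusted p = 0.0743), no longer called. Without 1 library of the 6, Jag1 had an adjusted p of 0.00817 to 0.0565, Fgf1 of 0.0213 to 0.0819, Notch4 of 0.0819 to 0.115, Abcg2 of 0.0719 to 0.149, Abcc4 of 0.0455 to 0.171 and Slc38a5 of 0.0412 to 0.139.

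**Figure D4:**
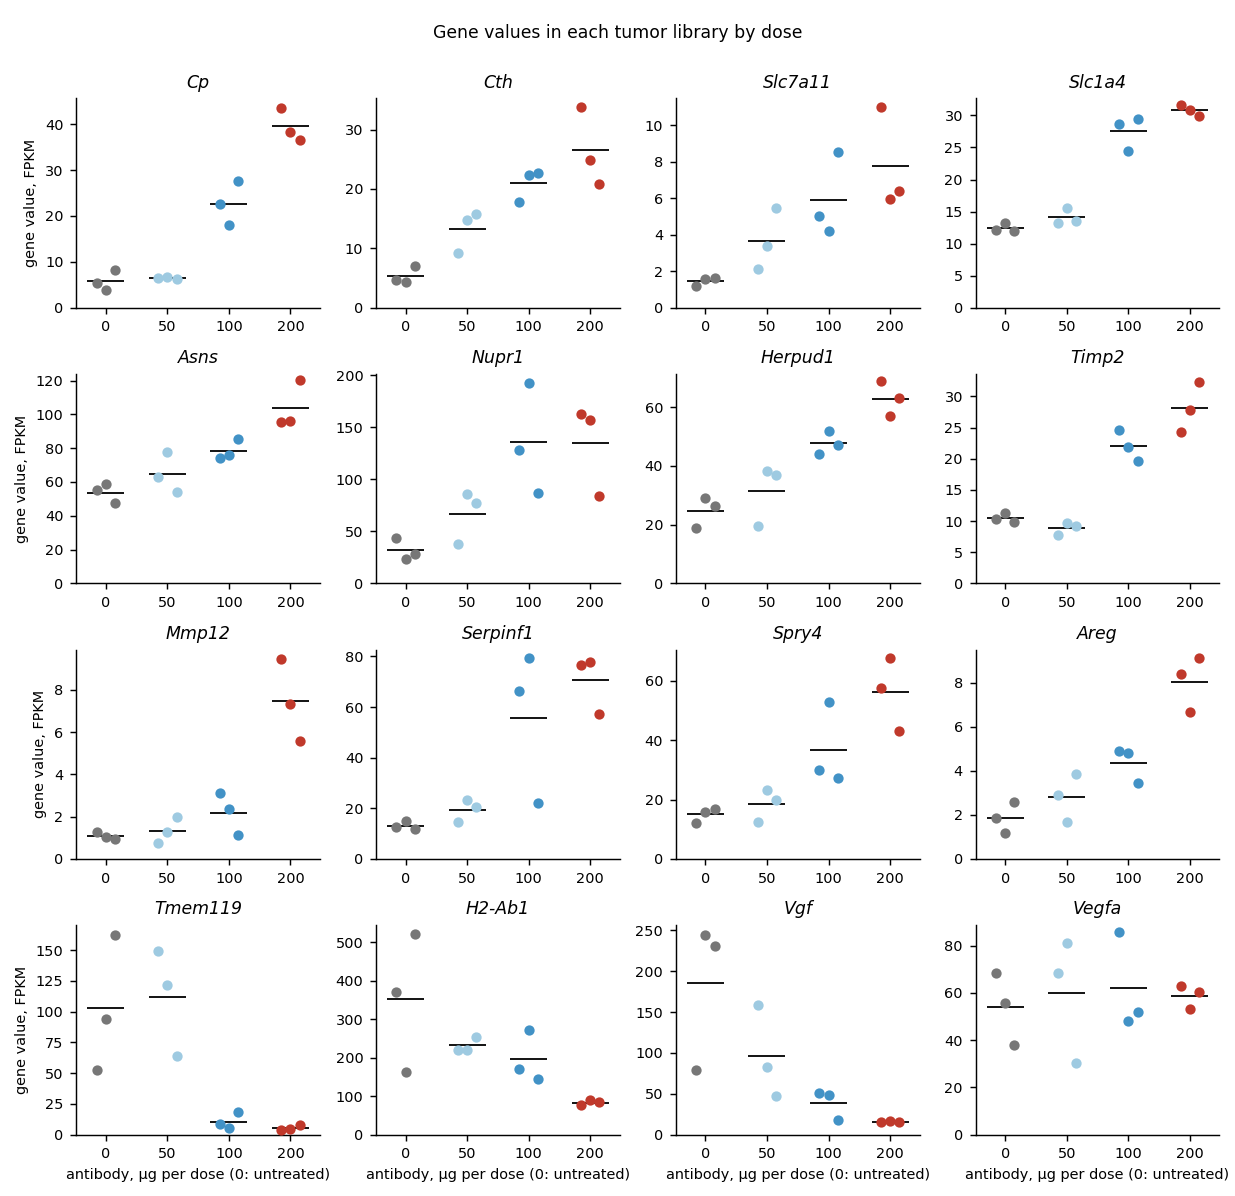
Gene values (FPKM) of 16 genes in the 12 tumor libraries by antibody dose (µg per dose, 0 for untreated). Each point is a library and each bar the mean of 3. Cp, Cth and Slc1a4 lie higher in all libraries at 100 and 200 µg than in any untreated one, H2-Ab1 and Vgf lie lowest at 200 µg, Tmem119 lies low at both 100 and 200 µg, and Vegfa overlaps at all doses.

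Of the genes that rose, 13 belong to amino acid uptake and synthesis and the stress response of ATF4. The 6 lists on this theme hold 114 distinct genes, of which 13 rose (11.4%, beside 2.03% of all genes) and 1 fell, with a median log2 fold change of 0.40. Estimates were positive for 83 of the 114. The 200 µg and untreated libraries did not overlap for 53 in the upward and 16 in the downward direction, beside 21.8% and 17% of all genes. The lists were drawn up with earlier results of these data known, so their count is a description.

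Cth, which makes cysteine from cystathionine, had the largest fold change of the 13 genes. It stood at 33.8, 24.8 and 20.9 FPKM at 200 µg against 4.68, 4.32 and 6.97 in untreated tumors, a log2 change of 2.12 (SE 0.26, adjusted p = 0.00908). The gene lies on chromosome 3, 157894248 to 157925077. The groups stood far apart, and the libraries at 50 µg (9.17, 14.8 and 15.8) and 100 µg (17.8, 22.3 and 22.7) lay between them on average. Slc7a11, the cystine importer that supplies the same amino acid from outside, had 10.98, 5.95 and 6.397 FPKM against 1.19, 1.59 and 1.63 (log2 fold change 1.79, SE 0.32, adjusted p = 0.0239). Cysteine feeds glutathione, and the 2 subunits of the rate-limiting ligase of its synthesis were at 0.79 for Gclc (adjusted p = 0.0824) and 0.62 for Gclm (adjusted p = 0.232), neither called. The neutral amino acid carrier Slc1a4 had 31.7, 30.9 and 29.9 FPKM at 200 µg and 12.1, 13.2 and 11.9 in untreated tumors. Both groups were tight and far apart (log2 fold change 1.25, SE 0.15, adjusted p = 0.00908).

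The enzymes of amino acid synthesis moved by less. Asns, which makes asparagine, stood at 95.4, 95.8 and 120.2 FPKM against 55.1, 58.6 and 47.4 (log2 fold change 0.94, SE 0.18, adjusted p = 0.0306), and the alanine transaminase Gpt2 at 39.99, 38.4 and 42.4 against 25.9, 19.7 and 19.3. Got1, the cytosolic aspartate transaminase, had 64.5, 57.7 and 61.6 FPKM at 200 µg and 32.8, 39.8 and 35.7 in untreated tumors. In all 3 genes the treated libraries lay above every untreated one (log2 fold changes 0.94, 0.88 and 0.75). The serine synthesis enzymes Psat1 (0.72, adjusted p = 0.0544), Psph (0.78, 0.0746) and Phgdh (0.59, 0.101) and the mitochondrial folate enzymes Mthfd2 (0.77, 0.0749) and Aldh1l2 (1.31, 0.0656) lay above 0 without passing.

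Among regulators, Atf5, a leucine zipper factor of the mitochondrial stress response, stood at 169, 141 and 147 FPKM at 200 µg against 59.6, 50.7 and 44.6 in untreated tumors (log2 fold change 1.55, SE 0.33, adjusted p = 0.0402). Nupr1, a small nuclear stress protein, had 162, 157 and 84.01 against 43.7, 23.7 and 28.1 (log2 fold change 2.03, SE 0.41, adjusted p = 0.0345), and Cebpg, a partner of ATF4 on DNA, 35.7, 35.1 and 31.1 against 19.9, 16.1 and 18 (log2 fold change 0.88, SE 0.16, adjusted p = 0.0257). The groups stood apart in each gene, and Nupr1 varied most, with replicate 3 lowest at 200 µg. With the GC trend removed Cebpg stood at 0.60 (adjusted p = 0.0592), no longer called. Atf4 itself was at 1.07 (adjusted p = 0.0731), Chac1 at 1.27 (0.0735) and Trib3 at -0.11 (0.838), none called. Vldlr, a lipoprotein receptor that stress also induces, rose by 1.51 (SE 0.24, adjusted p = 0.0172). Of 23 genes of the endoplasmic reticulum stress response 2 rose, Herpud1 (68.7, 56.99 and 63.01 FPKM against 18.7, 29.2 and 26.2), which helps discard misfolded proteins, and the cochaperone Dnajb9 (34.7, 31.3 and 27.2 against 13.8, 12.9 and 11.9). The chaperone Hspa5, the standard mark of that response, was at -0.09 (adjusted p = 0.866), and Xbp1 at -0.42 (0.269). None of 20 cytosolic tRNA synthetases rose and 1, Vars, fell (-0.83, adjusted p = 0.0472), a call lost with the GC trend removed, at -0.42 (adjusted p = 0.179). At an unadjusted p under 0.05, 7 of the 20 were higher and 4 lower, beside 1930 and 1446 of all 14653 genes. Tyrosyl (Yars, 0.93), asparaginyl (Nars, 0.81) and glycyl (Gars, 0.69) synthetases had the largest estimates.

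The count for the 6 lists kept its direction under the scalings and trends tried. It was 19 higher and 0 lower with the GC trend removed, 12 and 2 with the length trend removed, 29 and 3 in a fit of the 6 libraries alone, and 11 and 1 under median-of-ratios scaling. It was 1 and 0 with the plain FPKM sum and 0 and 0 with the term for libraries with few pieces, where the median log2 fold change was 0.24. Without replicate 1, 2 or 3 at 200 µg the higher count was 0, 2 and 7, and without untreated replicate 1, 2 or 3 it was 3, 3 and 2, at medians of 0.36 to 0.47. Adjusted p spanned 0.0088 to 0.0514 for Cth, 0.0112 to 0.0514 for Slc1a4, 0.0419 to 0.0972 for Slc7a11, 0.0692 to 0.12 for Asns and 0.0766 to 0.149 for Atf5 over these 6 runs.

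Promoters of these genes were searched for TGATGNAA on either strand, the composite site that ATF4 binds with C/EBP partners (N is any base), in the 250 bases before the RefSeq start of each gene (GRCm38.p6). Of the 13 genes that rose 12 matched a promoter entry, and 6 of these held the site (50%). It was present in 15 of 88 matched genes of the 6 lists (17%), in 239 of 9944 matched genes tested (2.4%) and in 1056 of all 27025 promoters (3.91%). The stretches around the matches are shown because this site is the known entry point of ATF4 to genes of amino acid stress. They run 5′ to 3′ on the gene's strand, and capitals mark each match, read as TTNCATCA where it lies on the other strand. The first match begins 66 bases before the start in Slc7a11, 23 in Asns, 110 in Nupr1, 112 in Herpud1, 200 in Vldlr and 102 in Got1. A match is a description of the sequence and not evidence of binding. The lists were drawn up around ATF4 and amino acid stress, so a larger share in them than over all genes carries no weight as a test. The share over all genes called higher was not taken.
Slc7a11, chr3:50443623-50443709, minus strand: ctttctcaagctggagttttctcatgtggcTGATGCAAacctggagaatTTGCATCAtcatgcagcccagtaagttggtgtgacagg
Asns, chr6:7693210-7693262, minus strand: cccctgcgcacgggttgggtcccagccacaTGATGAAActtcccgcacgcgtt
Nupr1, chr7:126625543-126625610, minus strand: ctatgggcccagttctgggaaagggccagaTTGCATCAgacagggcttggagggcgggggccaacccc
Herpud1, chr8:94386287-94386354, plus strand: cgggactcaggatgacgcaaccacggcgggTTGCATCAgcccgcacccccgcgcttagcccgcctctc
Vldlr, chr19:27216790-27216857, plus strand: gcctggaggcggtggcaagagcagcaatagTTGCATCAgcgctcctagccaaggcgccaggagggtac
Got1, chr19:43524670-43524737, minus strand: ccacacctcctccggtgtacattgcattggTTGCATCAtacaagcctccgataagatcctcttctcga

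Of 16 iron genes 2 rose, Cp and Trf, and of 15 acute phase genes 2 rose, Lbp and Hp, beside 2.03% of all genes. Cp, ceruloplasmin, the copper enzyme that oxidises iron for export, had the smallest p of the coding genes that rose and are not joined, overlapping or copied. It stood at 43.6, 38.4 and 36.6 FPKM at 200 µg against 5.41, 3.94 and 8.27 in untreated tumors, with 6.58, 6.697 and 6.35 at 50 µg and 22.5, 17.9 and 27.6 at 100 µg (chromosome 3, 19957054 to 20009145). The treated libraries lay far above the untreated ones, with a log2 change of 2.605 (SE 0.24, adjusted p = 0.00181), an adjusted p of 0.00144 to 0.0158 without any 1 library and 2.17 (adjusted p = 0.0848) with the term for libraries with few pieces. Trf, transferrin, which carries iron in blood and is also made by oligodendrocytes, had 572, 489.5 and 200 FPKM against 108, 96.2 and 96.7. Replicate 3 was the lowest at 200 µg, and Trf is uncertain because it overlaps another annotated gene and has near-identical copies. The other 14 iron genes tested did not pass. They include the importer Tfrc (-0.34), the exporter Slc40a1 (0.80) and the ferritin chains Fth1 (0.86) and Ftl1 (-0.45).

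Lbp, the binding protein of bacterial lipopolysaccharide, stood at 62.1, 48.98 and 52.7 FPKM at 200 µg against 12.7, 16.1 and 10.9 in untreated tumors (log2 fold change 1.98, SE 0.27, adjusted p = 0.00993). Hp, haptoglobin, which binds free hemoglobin, was listed at 5.11, 4.05 and 3.299 FPKM at 200 µg and at 0 in all untreated tumors (adjusted p = 0.0376). Both are plasma proteins of the acute phase, and Saa3 (-0.66), Lcn2 (-0.10) and the other 11 genes of that list were not called. Without 1 library of the 6, adjusted p ran over 0.0201 to 0.0582 for Lbp, 0.0634 to 0.14 for Hp and 0.0133 to 0.142 for Trf.

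A list of 20 feedback genes of growth factor signalling, which also holds ligands, was chosen after values were seen, so its counts carry no weight as a test. Of 19 tested members 8 rose (42.1%, beside 2.03% of all genes), none fell and 11 were not called, with a median log2 fold change of 0.83. With the plain FPKM sum 1 was called, and with the term for libraries with few pieces 0, at medians of 0.87 and 0.90. The dual specificity phosphatase Dusp6, which switches off ERK, stood at 190.4, 239.6 and 217 FPKM at 200 µg against 98.4, 90.97 and 95.96 in untreated tumors (log2 fold change 1.17, SE 0.19, adjusted p = 0.0195). Spry4, a Sprouty inhibitor of receptor signalling, had 57.6, 67.7 and 43.2 FPKM against 12.2, 15.8 and 16.9 (log2 fold change 1.83, SE 0.30, adjusted p = 0.0198). Areg, amphiregulin, which activates the EGF receptor, stood at 8.38, 6.68 and 9.11 FPKM at 200 µg and 1.87, 1.17 and 2.59 in untreated tumors (log2 fold change 1.68, SE 0.26, adjusted p = 0.0172). In each of these the groups did not overlap. Dusp4 (1.84), Dusp2 (1.59), the early response gene Ier3 (1.89) and the ETS factor Etv1 (1.27, uncertain because of copies) rose too. Spry2 (0.88, adjusted p = 0.0557), Spry1 (0.79, 0.0671) and Etv5 (0.78, 0.0764) lay close to the threshold, and Etv4 (-0.52, 0.406) and Phlda1 (-0.31, 0.695) on the other side of 0. The transient early genes Fos (0.54, 0.496), Egr1 (0.46, 0.627) and Dusp1 (-0.13, 0.869) were among 17 immediate early genes of which none was called, with 2 higher and 1 lower at an unadjusted p under 0.05. Of 19 receptor tyrosine kinases and ligands limma called none, with a median of 0.50 and 8 higher at an unadjusted p under 0.05. The 8 calls were lost without replicate 1 or 2 at 200 µg or untreated replicate 1 or 2 (0 each), and 5 and 1 were called without 200 µg and untreated replicate 3.

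Of 26 matrix proteases and inhibitors 5 rose and none fell (19.2%, beside 2.03% of all genes). The median of the list was 0.25. With the GC trend removed 6 were called higher, while the median was 0.02, with 15 positive and 11 negative estimates. With the plain FPKM sum 1 was called higher, and with the term for libraries with few pieces also 1. Timp2, an inhibitor of metalloproteases, stood at 24.4, 27.8 and 32.4 FPKM at 200 µg against 10.4, 11.2 and 9.84 in untreated tumors (log2 fold change 1.34, SE 0.17, adjusted p = 0.00908). It stayed called without any 1 of the 6 libraries (0.0147 to 0.0456). Timp3, which inhibits metalloproteases and also blocks VEGF from its receptor Kdr, had 49.9, 55.2 and 66.8 FPKM against 22.7, 24.1 and 27.4 (log2 fold change 1.17, SE 0.24, adjusted p = 0.0357). The secreted protease Adamts1, described as an inhibitor of vessel growth, stood at 97.9, 83.4 and 85.97 FPKM at 200 µg and 45.6, 38.4 and 31.3 in untreated tumors (log2 fold change 1.204, SE 0.20, adjusted p = 0.0195). The groups did not overlap in any of the 3. Mmp12, an elastase of macrophages, rose at a low level, with 9.47, 7.33 and 5.58 FPKM against 1.26, 1.03 and 0.941 (log2 fold change 2.01, SE 0.28, adjusted p = 0.0118), and Mmp11 had 5.46, 5.36 and 5.27 against 2.04, 1.77 and 2.102. Timp1, the inhibitor induced by inflammation, was at -0.58 (adjusted p = 0.221) and Mmp14 at -0.34 (0.441). Thbs2, a matrix protein that restrains vessel growth, was the only riser of 31 matrix genes, at 97.6, 112 and 89.8 FPKM at 200 µg and 44.3, 36.6 and 33.3 in untreated tumors (log2 fold change 1.37, SE 0.20, adjusted p = 0.0139). Serpinf1, which encodes the vessel inhibitor PEDF, belonged to no list and was among the 10 largest rises of coding genes that are not joined, overlapping or copied, at 76.7, 77.9 and 57.3 FPKM against 12.5, 14.96 and 11.9 (log2 fold change 2.33, SE 0.40, adjusted p = 0.0211). The collagens of basement membrane Col4a1 (-0.51) and Col4a2 (-0.80) were not called. Without any 1 library, adjusted p was 0.0137 to 0.063 for Mmp12, 0.0387 to 0.0886 for Adamts1, 0.0802 to 0.112 for Timp3, 0.0783 to 0.143 for Mmp11, 0.0213 to 0.065 for Thbs2 and 0.0368 to 0.0886 for Serpinf1.

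Other single genes rose in the lists of growth and metabolism. Ccnd2, cyclin D2, which carries cells out of G1, stood at 163, 143 and 129 FPKM at 200 µg against 56.3, 48.4 and 49.8 in untreated tumors (log2 fold change 1.47, SE 0.18, adjusted p = 0.00908), and was the only call among 23 genes of G1 control. In the TGF-beta list Smad3, which carries the signal to the nucleus, rose by 1.12 (SE 0.17, adjusted p = 0.0171) and the BMP receptor Bmpr1a by 1.11 (SE 0.23, adjusted p = 0.0357), with 18 others not called. Among 24 antioxidant genes 3 rose (12.5%) and 1 fell (4.17%), beside 2.03% and 0.798% of all genes. Those that rose were Slc7a11, given above, the malic enzyme Me1, which supplies NADPH (1.298), and Gstm1, a glutathione transferase (1.46). The gene that fell was Sod1 (-1.94). Me1, Gstm1 and Sod1 are uncertain because of neighbors or copies. Ldhb, the lactate dehydrogenase chain of oxidative tissues, was the only call of 20 glycolysis genes, at 47.3, 45.2 and 47.6 FPKM against 26.5, 18.98 and 18.6, and is uncertain because of copies. The glycolysis list had a median of -0.34, with 14 negative and 6 positive estimates. At an unadjusted p under 0.05 by limma 6 of the 20 were lower and 1 higher, beside 1446 and 1930 of all 14653 genes. Slc27a6, a fatty acid transport protein, and Ppp1r3c, which targets a phosphatase to glycogen, were among the 10 largest rises of coding genes free of joined, overlapping or copied neighbors, at 2.09 and 2.29. Ppp1r3c was listed at 0 in untreated replicate 3. Among such genes the largest rise with a value in every untreated library was that of Csn3, the milk protein kappa-casein, at 75.6, 111 and 26.6 FPKM at 200 µg and 5.603, 4.73 and 5.77 in untreated tumors (log2 fold change 3.28, SE 0.53, adjusted p = 0.0193). Adamdec1, a protease of macrophages and dendritic cells, was listed at 5.89, 6.198 and 2.56 FPKM at 200 µg and at 0 in all untreated tumors, a call lost with the GC trend removed. Lbhd2 had 17.4, 26.2 and 5.33 FPKM at 200 µg and 0, 2.16 and 0 in untreated tumors. Adjusted p without 1 library spanned 0.0112 to 0.0514 for Ccnd2, 0.0298 to 0.081 for Smad3, 0.0687 to 0.126 for Bmpr1a and 0.00756 to 0.0853 for Csn3.

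Of immune genes that fell, Tmem119, a surface protein of resting microglia, fell to 4.03, 4.47 and 7.66 FPKM at 200 µg, against 52.8, 93.99 and 162 in untreated tumors (chromosome 5, 113793729 to 113800516). The treated values lay far below the untreated ones, which spread widely, with a log2 change of -3.92 (SE 0.51, adjusted p = 0.00912). At 50 µg it stood at 149, 122 and 63.6 FPKM and at 100 µg at 8.26, 4.99 and 18.4. Its call ended only without replicate 1 at 200 µg among the 6 runs (0.0551), and the fold change stood at -5.31 (adjusted p = 0.0399) with the term for libraries with few pieces. No other gene of the 11 in the microglia list was called. Trem2 (-0.91), Olfml3 (-0.94) and Cx3cr1 (-0.72) had negative estimates, and P2ry12 (-0.05) lay near 0. The summed level of the list was 348 to 430 FPKM at 200 µg and 437 to 538 in untreated tumors. Without Tmem119 it was 343 to 422 FPKM at 200 µg and 343 to 473 in untreated tumors, ranges that overlap. Of 10 class II antigen presentation genes only H2-Ab1 fell. It had 76.7, 88.5 and 84.3 FPKM at 200 µg against 370.3, 163 and 521 in untreated tumors, where the spread was wide (log2 fold change -1.91, SE 0.37, adjusted p = 0.0306). Its partner chain H2-Aa was at -0.61 (adjusted p = 0.443) and the invariant chain Cd74 at -0.54 (0.41). None of 18 class I genes was called, although their median was -0.54. At an unadjusted p under 0.05, 9 of the 18 were lower, beside 1446 of all 14653 genes. Over the 152 genes of the immune lists 1 rose (Zbtb46, 0.658%) and 3 fell (1.97%), beside 2.03% and 0.798% of all genes. The third that fell was the dendritic cell receptor Xcr1, at 0.437, 0 and 0.397 FPKM at 200 µg and 4.14, 3.36 and 4.13 in untreated tumors. Zbtb46 and Xcr1 are uncertain because their transcripts join a neighbor. None of 28 macrophage, 39 interferon, 19 chemokine, 13 T and NK cell or 11 checkpoint genes was called by limma. At an unadjusted p under 0.05, 6 of the 152 were higher and 22 lower, beside 1930 and 1446 of all 14653 genes. H2-Ab1 had an adjusted p of 0.0226 to 0.114 and Xcr1 of 0.0598 to 0.121 without 1 library.

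Of 34 genes of neurons, oligodendrocytes and their precursors 3 fell, Tubb3, Cldn11 and Mag. Tubb3, the neuronal tubulin, fell to 7.99, 7.26 and 6.15 FPKM at 200 µg, against 34.7, 18.8 and 24.2 in untreated tumors (log2 fold change -1.69, SE 0.30, adjusted p = 0.0226). Vgf, a neuropeptide precursor that is not one of the 34, fell to 14.9, 15.98 and 15.4, against 79.5, 245 and 231 (log2 fold change -3.34, SE 0.55, adjusted p = 0.0195), and its treated libraries lay close together. It was the only call of 5 tested granins and prohormones. Cldn11, the claudin of myelin, had 2.599, 3.59 and 2.25 FPKM at 200 µg and 23.4, 18.5 and 7.68 in untreated tumors (log2 fold change -2.09, SE 0.45, adjusted p = 0.0402), and Mag, a myelin adhesion protein, 0.932, 0.884 and 1.03 against 3.88, 2.85 and 2.301. Mag lost its call with the GC trend removed, at -0.75 (adjusted p = 0.0685). The lists of neurons, oligodendrocytes and their precursors had medians of -0.94, -1.02 and -0.84 over 12, 11 and 11 genes. Mbp (-0.16), which encodes a major myelin protein, lay near 0. The 3 that fell are 8.82% of the 34 distinct genes, beside 0.798% of all genes. None rose. Treated libraries lay wholly below untreated ones for 18 of the 34 and wholly above for 2, beside 17% and 21.8% of all genes. With the term for libraries with few pieces the median over the 34 was -0.33 and none was called. Ttr, a carrier protein of the choroid plexus, was listed at 0 in all 200 µg libraries, against 49.6, 44.2 and 3.54 FPKM in untreated tumors. The 3 healthy brain libraries held 565, 11.3 and 1259 FPKM, so Ttr varied widely there as well. The astrocyte glutamate transporter Slc1a3 rose, at 97.04, 68.5 and 61.1 FPKM against 40.4, 27.9 and 40.4, a call lost with the GC trend removed, at 0.81 (adjusted p = 0.064). The other 8 astrocyte genes were not called. Without 1 library adjusted p was 0.0486 to 0.0839 for Tubb3, 0.0251 to 0.082 for Vgf, 0.0522 to 0.142 for Cldn11, 0.0767 to 0.147 for Mag and 0.0467 to 0.143 for Slc1a3.

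Genes of the ribosome and the respiratory chain had negative medians as families. The shares called lower were 3.66% for cytosolic and 3.85% for mitochondrial ribosomal genes, 2.17% for complex I and 4.55% for complexes III and IV. Each rests on 1 to 3 genes, beside 0.798% of all genes called lower. Of 82 cytosolic ribosomal protein genes 3 fell and none rose, and 70 had negative estimates, with a median of -0.62 on the log2 scale. The median stayed negative under median-of-ratios scaling (-0.68), quantile normalization (-0.36), removal of the GC and length trends (-0.53) and the term for libraries with few pieces (-0.13). The family has a median exonic length of 976 bases, against 2797 over all genes. Rpl11, Rpl8 and Rpl37a, the 3 that fell, are uncertain because of copies or joined neighbors, as are 72 of the 82. With the GC trend removed Rpl11 kept its call, while Rpl8 stood at -0.61 (adjusted p = 0.265) and Rpl37a at -1.36 (adjusted p = 0.0592), no longer called. Of 78 mitochondrial ribosomal genes 3 fell (median -0.22), of 46 subunits of complex I 1 fell (-0.23) and of 22 subunits of complexes III and IV 1 fell (-0.43). With the term for libraries with few pieces the median of complex I was -0.06 and that of complexes III and IV changed sign, to 0.14. Cox8a, a small subunit of cytochrome oxidase, stood at 122, 162 and 376 FPKM at 200 µg against 859.7, 790.2 and 707 in untreated tumors (log2 fold change -2.0002, SE 0.41, adjusted p = 0.035), and Mrpl52 at 6.28, 19.2 and 25.6 against 57.4, 72.4 and 52.3. The groups did not overlap in either gene. The call of Cox8a ended with the GC trend removed, at -1.69 (adjusted p = 0.0513), and without 1 library adjusted p was 0.0133 to 0.134 for Cox8a and 0.0254 to 0.106 for Mrpl52. Of the solute carriers 10 of 198 were called higher and 1 lower (median 0.15), beside 2.03 and 0.798% of all genes. Dual specificity phosphatases had 3 of 18 higher, glutathione transferases 3 of 17, metalloproteases 2 of 13, ABC transporters 2 of 27 and tubulins 2 of 19 lower. Zinc finger genes, with the lowest GC content of the large families (44.6%), had 1 higher and 3 lower of 297.

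Some of the largest falls among coding genes that are not joined, overlapping or copied were in genes listed at or near 0. Xpnpep1, an aminopeptidase, was at 0.0151, 0.0328 and 0 FPKM at 200 µg, against 11.1, 12.4 and 13.9 in untreated tumors. At 100 µg it was at 12.8, 14.1 and 0 FPKM, so replicate 3 there lay with the 200 µg libraries. Its estimate changed sign with the term for those libraries. Hist1h4d was listed at 0 in all 200 µg libraries and at 6.37, 2.43 and 4.61 FPKM in untreated tumors. Glod5 (0, 0 and 3.63 against 9.53, 17.7 and 19.99) and Jsrp1 (0, 0 and 1.17 against 5.26, 14.9 and 11.8) were at 0 in 2 treated libraries each. Of genes called lower 17 were at 0 in at least 1 treated library and 7 in all 3, and of genes called higher 35 were at 0 in at least 1 untreated library and 12 in all 3. Joined, overlapping or copied genes made up 28.5% of genes called higher, 57.3% of genes called lower and 44.8% of all genes tested. Rhd, a blood group gene of red cells (-1.25, adjusted p = 0.0195), Arhgdig (-1.61, 0.0171) and Tppp (-1.27, 0.0211), which binds tubulin in oligodendrocytes, had among the smallest p-values of the genes that fell. Without 1 library adjusted p spanned 0.0294 to 0.0886, 0.0254 to 0.081 and 0.0134 to 0.0931 in that order.

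Of the lists of DNA replication, mitosis, hypoxia and cholesterol, Vldlr alone passed. None of 34 genes of DNA replication was called by limma, with a median of -0.43 and 29 negative estimates. At an unadjusted p under 0.05, 8 were lower and 1 higher, beside 1446 and 1930 of all 14653 genes. The smallest p-values were those of Pold1, a DNA polymerase subunit, at 13.5, 12.6 and 8.204 FPKM against 23.3, 19.5 and 28 (log2 fold change -0.9974, SE 0.28, adjusted p = 0.0781) and thymidylate synthase Tyms (-0.90, adjusted p = 0.0815). None of 36 mitosis genes was called by limma, with 0 higher and 4 lower at an unadjusted p under 0.05 and a median of -0.09. The proliferation marker Mki67 was at -0.23 and the mitotic kinase Aurka at 20.6, 13.8 and 13.1 FPKM at 200 µg against 46.9, 21.4 and 34.9 in untreated tumors. The median over both lists was -0.17 with all libraries, 0.09 without replicate 3 at 200 µg and -0.36 without replicate 1, so that no direction can be given for them. Of 25 hypoxia genes 1 rose (Vldlr, also in the stress list), and the carbonic anhydrase Car9 (0.44), the glucose transporter Slc2a1 (-1.29, adjusted p = 0.172) and Hilpda (-0.45) did not. None of 24 cholesterol genes was called by limma, although 18 had negative estimates and 8 were lower at an unadjusted p under 0.05.

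**Figure D5:**
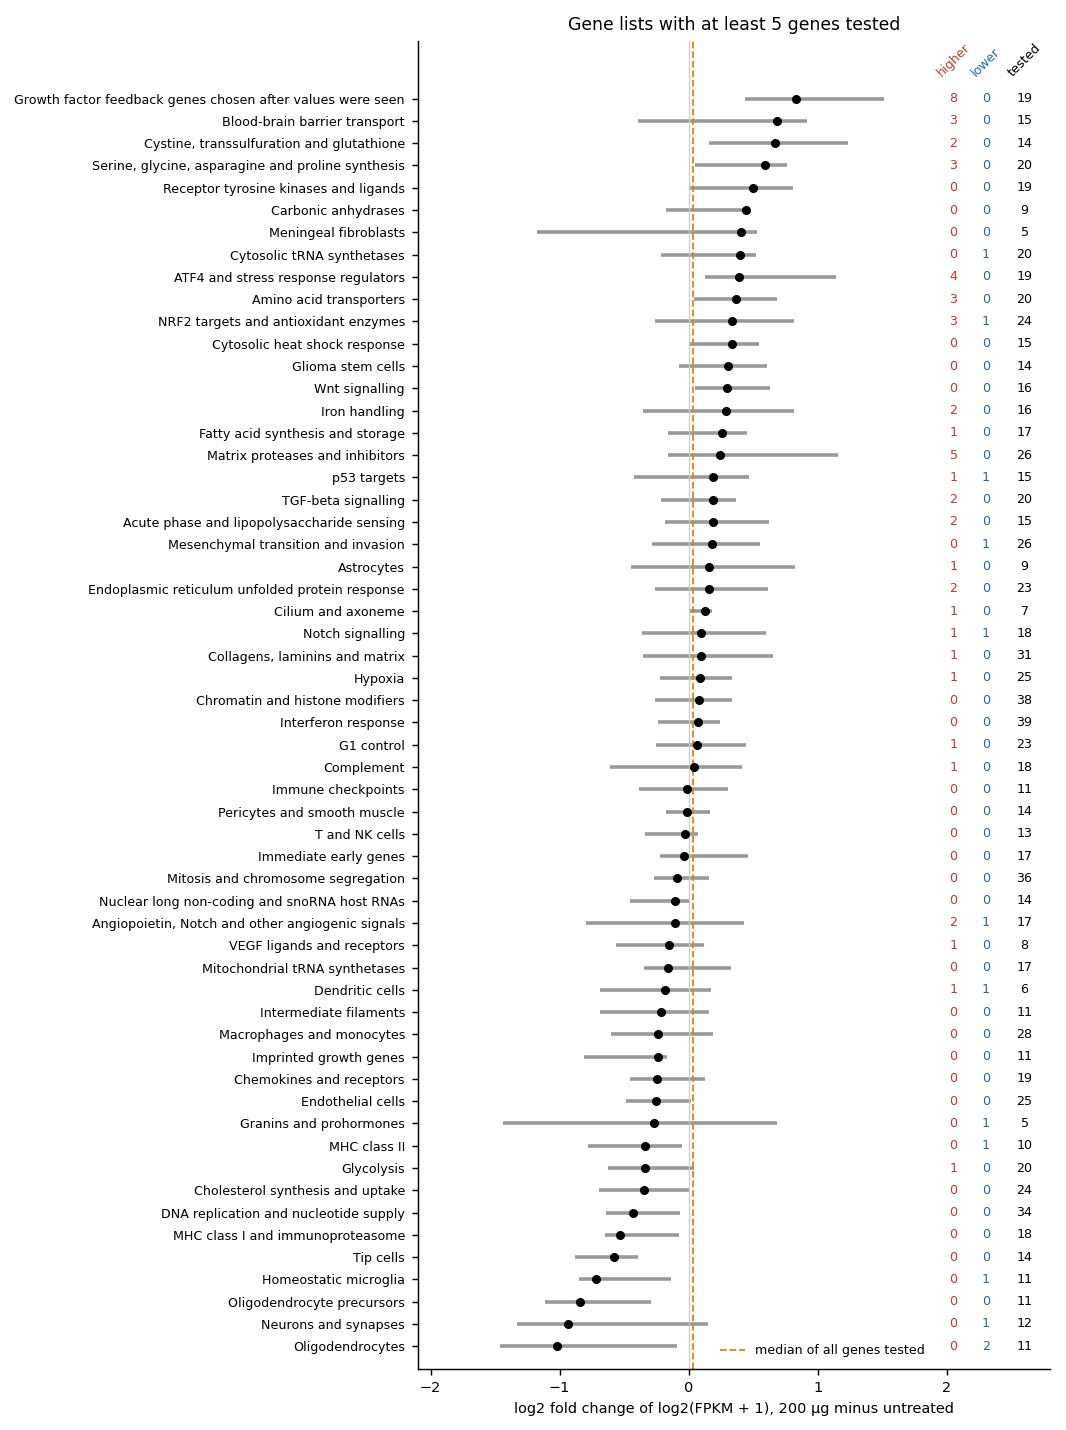
Median (point) and interquartile range (bar) of the log2 fold change, 200 µg minus untreated, over the tested genes of each list with at least 5, with the numbers called higher, called lower and tested at the right. The dashed line is the median of all genes tested, 0.036. Lists of amino acid metabolism lie to its right and lists of oligodendrocytes, neurons and microglia to its left, with 0 to 5 genes called in most lists.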

How the data were processed

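For each library the authors deposited a list of assembled transcripts with an FPKM in each record and no gene names or read counts; STAR, Cufflinks and mm10 are named in the submitters' processing notes, with versions and parameters not given in the sources used here. Transcripts were placed on exons of the GENCODE mouse release 21 basic set with bedtools 2.31.1, and a gene's value was the sum of FPKM times the share of its exonic length covered. Single-exon transcripts under 200 bases were not used. Depth is an estimate from the FPKM and its upper confidence limit in transcripts of 3000 bases or more, so no counting interval is given.

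Genes averaging 1 FPKM or more across the 12 tumor libraries were tested with limma 3.58.1 in R 4.3.3 on log2(FPKM + 1), with groups from the sample titles, and p-values were adjusted over all 14653 genes by Benjamini-Hochberg. The pseudocount makes fold changes of low genes too small. The labels speak of individual samples and name no animals, and the p-values reflect only how much those samples vary. An exact permutation test of 3 against 3 cannot go below 0.1. In simulated data for this comparison the fit called 1, 10, 33 and 39 of 50 genes changed by 0.5, 1, 2 and 3 log2 units, and 2 of 14453 unchanged ones. The simulated noise was normal, independent between genes and of equal spread in all libraries. It held no GC trend, assembly difference or outlying library, so its false calls do not measure those of the real comparison.

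A gene is uncertain where its transcripts join it to a neighbor, it overlaps another annotated gene or it shares sequence with a copy. Genes were named by rule: the 10 largest changes and 5 smallest p-values in each direction among coding genes free of these, called members of each list (or the 2 smallest p-values where none was called), and all VEGF ligands and receptors. The members and lists were chosen with earlier results of these data known. Alternatives on GC content, on the annotation and on coding genes alone were added after the data were seen.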

Additional observations from a re-analysis of the deposited data

How the results depend on the processing

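As reported, 415 genes were called, 298 higher and 117 lower. The count moved by over 1.5 times under several alternatives. A fit of the 6 libraries alone called 1672 genes (952 higher and 720 lower), and leaving out replicate 3 at 50 µg and at 100 µg called 2407 (1397 and 1010). Leaving out libraries whose agent tag disagrees with the title called 928 (545 and 383), and taking groups from that tag called 9 (4 and 5), none of them shared. The plain FPKM sum called 29 (20 and 9) and the term for libraries with few pieces 35 (25 and 10). A pseudocount of 0.1 left 70 genes lower, and a test of genes in 1 piece alone, adjusted over those genes, called 193 higher. Leaving out 1 library gave 8 to 235 calls, 7 to 185 higher and 1 to 50 lower. Replicate numbers did not pair the samples (correlations of same-numbered libraries 0.081, -0.054 and 0.024), and with the replicate block 213 genes were called (151 higher and 62 lower). The cause of these shifts was not tested. Xpnpep1 changed sign with the term for few pieces, to 0.13 (adjusted p = 0.949). Of 75 called genes named, 64 stayed called with the GC trend removed, 69 with the length trend removed, 67 under median-of-ratios scaling, 72 under quantile normalization, 9 with the plain sum and 4 with the term for few pieces. Without a read count per gene, no limit for a listing of 0 can be given.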

Other observations

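Some genes that rose belong to none of the lists and were chosen after their values were seen. Foxo1, a transcription factor that insulin signalling holds out of the nucleus, stood at 7.71, 7.15 and 6.69 FPKM at 200 µg against 2.397, 2.27 and 2.19 in untreated tumors, with a log2 change by limma of 1.31 (SE 0.17, adjusted p = 0.00908). Tnfrsf11b, the decoy receptor osteoprotegerin, had 19.6, 12.3 and 21.1 FPKM at 200 µg and 5.11, 4.56 and 5.45 in untreated tumors, with 1.597 (SE 0.25, adjusted p = 0.0171). Slc5a3, which imports the osmolyte myo-inositol, had 14.7, 16.3 and 12.3 FPKM against 6.25, 3.61 and 3.21, with 1.56 (SE 0.25, adjusted p = 0.0181). The groups did not overlap in any of the 3 genes. Tm4sf1, a surface protein of endothelial and tumor cells that was among the 5 smallest p-values, stood at 60.8, 69.6 and 47.4 FPKM at 200 µg and 21.4, 17.97 and 21.2 in untreated tumors, with 1.495 (SE 0.19, adjusted p = 0.00908). Hoxa10, a homeobox factor of body patterning, had 7.103, 7.29 and 6.68 FPKM against 2.61, 3.98 and 2.13, with 1.07 (SE 0.19, adjusted p = 0.0257).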
